A study of Mus musculus with 8 samples.

Results

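The genes described here mark macrophages and other leukocytes: *Csf1r*, *Ptprc*, *Spi1*, *Cd68*, *C1qa*, *Lyz2*, *Mrc1*, *Cx3cr1*, *Tyrobp* and *Runx1*, 10 of 26180 genes with a curated RefSeq transcript. A peak of H3K27Ac belonged to a gene when its centre lay nearest to a transcription start of that gene, which gave 21 of 45980 peaks to these genes. Chromatin came from ventricles of mice at postnatal day 7 (P7). The 2 *control* animals were *Arid1a* f/f without Cre, and the 2 *Arid1a cKO* animals were aMHC-Cre;*Arid1a* f/f, so all 4 carried floxed alleles and only the mutants carried the transgene. The αMHC promoter drives Cre in cardiomyocytes, so leukocytes are an outside cell type in this model, and an effect of the transgene cannot be told apart from one of the deletion. Each animal gave 1 H3K27Ac library and 1 input library. Every value below is a mean of a group as deposited, in normalized reads per peak, and each difference is *Arid1a cKO* minus *control* on the log2 scale. There were 0 columns of single samples, so no spread between animals could be computed here and the depth of each library is unknown. No test was made here, and the authors' p-value and FDR columns, which compare the groups per peak, were not used. A peak was counted as higher or lower when the means of the groups differed at least 1.5-fold, which is 0.58 on the log2 scale.

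H3K27Ac marks active promoters and enhancers, and at identity genes of a cell type it is laid down mainly in the cells that use them. The neonatal heart holds resident macrophages that come from yolk sac and fetal liver, and they depend on signals through CSF1R, the receptor for CSF1 and IL34. PU.1, the product of *Spi1*, and RUNX1 are transcription factors that set up the enhancers of this lineage, and C/EBP and IRF factors act beside them. In whole ventricle, a larger number of cells of a type and more H3K27Ac per cell cannot be told apart.

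Of the 10 genes, 9 had at least 1 peak and *Lyz2* had none. In *Arid1a cKO* ventricles, 6 of 21 peaks were higher, 0 were lower and 15 were neither. The 6 peaks lay at *Ptprc*, *Mrc1*, *Tyrobp*, *Spi1* and *Runx1*, the last with a pair of them. They made up 28.6% of the peaks, beside 12.0% of all peaks that were higher and 17.3% of all peaks that were lower. Among the 34226 peaks in the range of concentration that the genes spanned, 14.7% were higher and 20.2% were lower. Of the 21 peaks, 17 had a larger mean in *Arid1a cKO*, which is 81.0% beside 50.6% of all peaks. The median difference was 0.26 on the log2 scale, with a range from −0.51 to 0.88, while the median over all peaks was 0.01.

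Sequences of 4 regions that the results turn on are given first, from the GRCm38.p6 reference (mm10). They are the centre of the *Ptprc* peak with the largest difference, the centre of the strongest *Spi1* peak, the bases before the start of *Mrc1*, whose promoter peak was higher, and the bases before the start of *Lyz2*, where no peak lay. The promoters are those of the RefSeq table for GRCm38.p6. Capitals mark matches to GAGGAAG (PU.1), TGTGGT (RUNX) or TTGCNNAA (C/EBP) on either strand. Each runs 5′ to 3′ on the strand of its gene, the minus strand for *Ptprc* and *Lyz2*.
Ptprc, 300 bases at chr1:138191803-138192102: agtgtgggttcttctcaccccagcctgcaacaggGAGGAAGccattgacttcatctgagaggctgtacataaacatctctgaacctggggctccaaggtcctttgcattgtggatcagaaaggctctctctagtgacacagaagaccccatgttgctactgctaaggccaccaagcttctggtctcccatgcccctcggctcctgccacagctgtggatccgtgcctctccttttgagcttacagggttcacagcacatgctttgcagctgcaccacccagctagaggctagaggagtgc
Spi1, 300 bases at chr2:91083008-91083307: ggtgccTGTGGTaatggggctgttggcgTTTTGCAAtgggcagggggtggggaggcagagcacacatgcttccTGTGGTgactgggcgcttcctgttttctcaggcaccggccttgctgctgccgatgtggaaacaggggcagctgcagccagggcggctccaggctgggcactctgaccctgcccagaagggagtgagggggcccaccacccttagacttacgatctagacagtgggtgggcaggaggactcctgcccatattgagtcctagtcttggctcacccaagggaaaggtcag
Mrc1, 250 bases at chr2:14229164-14229413: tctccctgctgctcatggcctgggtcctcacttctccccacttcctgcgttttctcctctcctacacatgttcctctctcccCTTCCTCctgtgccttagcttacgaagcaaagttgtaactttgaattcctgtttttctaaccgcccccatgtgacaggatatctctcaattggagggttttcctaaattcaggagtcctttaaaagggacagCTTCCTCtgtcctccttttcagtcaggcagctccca
Lyz2, 250 bases at chr10:117282273-117282522: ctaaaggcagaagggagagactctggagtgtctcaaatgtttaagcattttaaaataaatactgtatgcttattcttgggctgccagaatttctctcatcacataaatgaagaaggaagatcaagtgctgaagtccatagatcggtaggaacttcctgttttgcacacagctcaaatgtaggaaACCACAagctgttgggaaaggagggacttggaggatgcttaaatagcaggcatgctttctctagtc
The *Ptprc* centre holds 1 match to PU.1. The *Spi1* centre holds a pair of matches to RUNX and 1 to C/EBP. The bases before *Mrc1* hold a pair of matches to PU.1, both as the reverse complement, and those before *Lyz2* hold 1 match to RUNX.

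**Figure D1:**
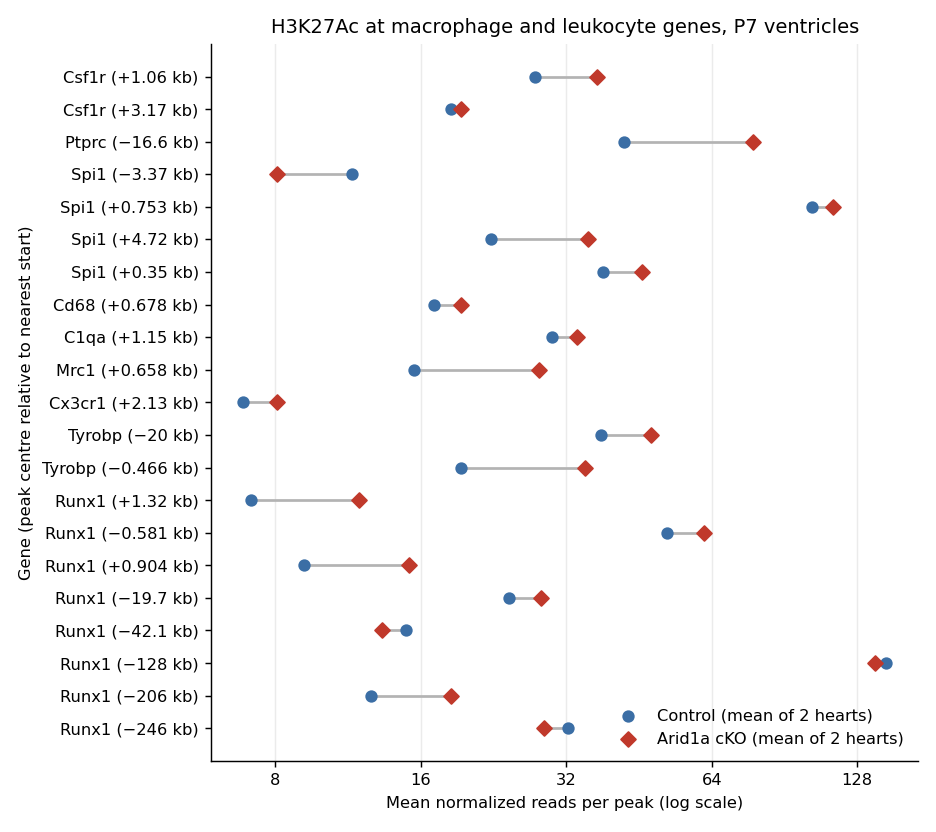
Mean normalized reads (log axis) in each of the 21 peaks in *control* (blue circles) and *Arid1a cKO* (red diamonds), each symbol the mean of a group of 2 and with no error bar because single samples are not given. The red symbol lies to the right in 17 peaks, with the widest gap at *Ptprc* from 42.2 to 77.7 reads.

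Among the surface receptors, *Ptprc*, which encodes the leukocyte phosphatase CD45, had the largest difference. Its only peak was intergenic at chr1:138190820-138193086, centred 16.6 kb upstream of the nearest start. The mean was 42.2 reads in *control* and 77.7 in *Arid1a cKO*, a 1.84-fold higher value and a difference of 0.88 on the log2 scale. The next gene, *Atp6v1g3*, started 81.8 kb away. When all peaks were ranked by concentration into 4 equal groups, this difference stood at percentile 98.2 of its group. The peak lay outside the gene body with 5 kb on each side, so assignment by gene body gave *Ptprc* no peak.

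*Csf1r*, the receptor on which most macrophages depend for survival, had a pair of intronic peaks on the plus strand of chromosome 18. The first, chr18:61105879-61107380, lay 1.06 kb inside the gene and had 27.5 reads in *control* and 37.0 in *Arid1a cKO*, a difference of 0.43. The second, chr18:61107769-61109708, lay 3.17 kb inside the gene and had 18.5 and 19.4 reads, a difference of 0.07. Neither peak covered the transcription start or passed the 1.5-fold limit.

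*Cx3cr1* encodes the receptor for the chemokine CX3CL1 and marks many tissue macrophages. Its intronic peak, chr9:120065764-120066568, was the weakest of all, with 6.87 reads in *control* and 8.06 in *Arid1a cKO*, a difference of 0.23. *Mrc1* encodes the mannose receptor CD206 of resident macrophages. Its peak covered the start at chr2:14228988-14231156, and the mean was 15.5 reads in *control* and 28.1 in *Arid1a cKO*. That is 1.82-fold higher, a difference of 0.86, and the largest among the 7 peaks that overlapped a promoter.

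*Tyrobp* encodes the adaptor DAP12, which passes on signals of receptors such as TREM2. The peak over its start, chr7:30412009-30414624, had 19.4 reads in *control* and 35.0 in *Arid1a cKO*, a 1.80-fold higher value and a difference of 0.85. An intergenic peak 20.0 kb upstream, chr7:30392705-30394917, had 37.8 and 47.8 reads, a difference of 0.34. The stronger of the pair was thus the distal one, and the peak at the start had the larger difference. With predicted transcripts included, neither peak was assigned to *Tyrobp*.

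The effector genes gave smaller values or no peak. *Cd68* encodes a lysosomal glycoprotein of macrophages, and its peak at chr11:69664842-69666143 had 17 reads in *control* and 19.4 in *Arid1a cKO*, a difference of 0.19. The gene beside it, *Mpdu1*, had a far stronger peak at chr11:69661439-69664212, with 391 and 343 reads and a difference of −0.19. *C1qa* encodes a chain of complement C1q, and the peak over its start at chr4:136896471-136898915 had 29.9 and 33.6 reads, a difference of 0.17. *Lyz2* encodes lysozyme, which macrophages and neutrophils share. The edge of the peak nearest to its start lay 57.1 kb away, belonged to *Yeats4*, and had 231 and 256 reads, a difference of 0.15. A region that did not become a peak has no value, so whether the mark at *Lyz2* differed between groups is not known.

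*Spi1*, the gene of PU.1, carried 4 peaks on chromosome 2, and their differences had both signs. The broadest, chr2:91080587-91085729, covered the upstream start and had 103 reads in *control* and 114 in *Arid1a cKO*, a difference of 0.14. The peak over the main start, chr2:91095971-91098130, had 38.1 and 45.9 reads, a difference of 0.27. Between them, the intronic peak chr2:91085921-91088335 was higher, with 22.3 and 35.5 reads, a 1.59-fold ratio and a difference of 0.67. The small peak upstream of the gene, chr2:91078698-91079364, had 11.5 and 8.06 reads, and its difference of −0.51 was the lowest of the 21. Summed over the gene, the difference was 0.21.

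The far end of *Spi1* adjoins *Mybpc3*, which encodes a myosin-binding protein of cardiomyocytes. A peak of *Mybpc3* at chr2:91114945-91123278 had 942 reads in *control* and 792 in *Arid1a cKO*, a difference of −0.25. When peaks were instead assigned by overlap with the gene body and 5 kb on each side, this peak and another of *Mybpc3* were counted for *Spi1*, and its summed difference became −0.14.

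*Runx1*, on the minus strand of chromosome 16, had the most peaks, 8 in all. RUNX1 is needed for the first blood stem cells and is used by many leukocytes, and it is also made in other cells of the heart. The strongest of the 21 peaks, chr16:92951753-92956096, lay 128 kb upstream of the distal start, with 147 reads in *control* and 139 in *Arid1a cKO*, a difference of −0.08. The peak over the proximal start, chr16:92696819-92699002, had 51.6 and 61.8 reads, a difference of 0.26.

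The higher pair at *Runx1* were weak peaks just inside each start. The peak 1.32 kb inside the proximal start, chr16:92695548-92696470, had 7.11 and 11.9 reads, a 1.67-fold ratio and a difference of 0.74. The peak 0.904 kb inside the distal start, chr16:92824726-92825615, had 9.19 and 15.1 reads, a 1.65-fold ratio and a difference of 0.72. The remaining 4 lay upstream of the distal start, at 19.7, 42.1, 206 and 246 kb, with differences of 0.22, −0.17, 0.56 and −0.16. *Runx1* thus held 3 of the 4 peaks with a lower mean in *Arid1a cKO*, and its summed difference was 0.08. Without *Runx1*, 12 of 13 peaks (92.3%) had a larger mean in *Arid1a cKO*, beside 50.6% of all peaks. Of the 13, 4 were higher (30.8%), beside 12.0% of all peaks, and the median difference was 0.27.

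**Figure D2:**
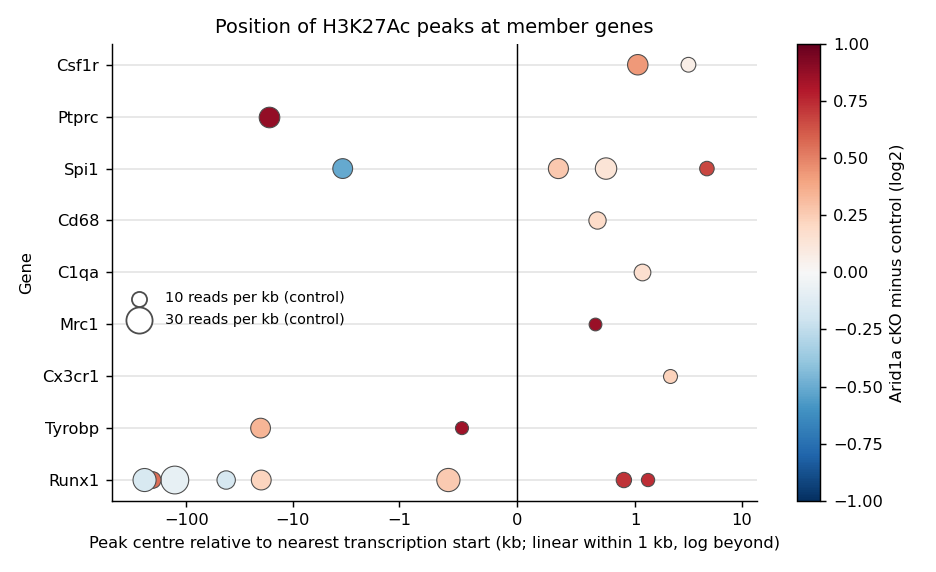
Position of each peak as the distance of its centre from the nearest start of its gene (kb, linear within 1 kb and logarithmic beyond, negative is upstream), with the area of the circle for reads per kb in *control* and the colour for the log2 difference. Most peaks sit within 5 kb of a start, and those of *Runx1* reach 246 kb upstream.

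Per length, the mark at these genes was below that of most peaks. Over all its peaks, *Runx1* had 22.7 reads per kb in *control*, followed by *Ptprc* with 18.6, *Spi1* with 16.9, *Csf1r* with 13.4, *Cd68* with 13.1, *C1qa* with 12.2, *Tyrobp* with 11.8, *Cx3cr1* with 8.53 and *Mrc1* with 7.13. Without values of single samples, neighbours in this order cannot be separated. The median of the 21 peaks was 14.8 reads per kb, and that of all peaks was 24.1. Together the 21 peaks covered 40.8 kb and summed to 689 reads in *control* and 826 in *Arid1a cKO*, a log2 ratio of 0.26.

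Each of the 9 genes with a peak had a summed difference above 0. The share of all genes with a summed difference above 0 is not given here, so this count has no background beside it. The lowest was *Runx1* at 0.08, and the highest were *Mrc1* at 0.86 and *Ptprc* at 0.88. In between lay *C1qa* at 0.17, *Cd68* at 0.19, *Spi1* at 0.21, *Cx3cr1* at 0.23, *Csf1r* at 0.30 and *Tyrobp* at 0.53. Centring on the median or on the total of all peaks subtracts a constant, 0.01 or −0.08, from every value. It could change none of these signs, so it does not check them. Under assignment by gene body, *Spi1* and *Cd68* were below 0, and *Ptprc* had no peak and so no value. With predicted transcripts included, *Tyrobp* had no peak and no value.

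Promoters and other peaks gave similar medians. A peak overlapped the promoter, from 1000 bases before to 100 after a start, in 6 of the 10 genes (60.0%), beside 58.2% of protein-coding genes. The exceptions were *Csf1r*, *Ptprc*, *Lyz2* and *Cx3cr1*. All 7 promoter peaks had a larger mean in *Arid1a cKO*, 2 were higher, and the median difference was 0.26. Of the 14 other peaks, 10 had a larger mean, 4 were higher, and the median difference was 0.29. Over all peaks of both kinds, 50.6% had a larger mean and 12.0% were higher. The shares over all promoter peaks alone are not given here, so the 2 kinds have no background of their own.

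The peaks were weak, and weak peaks differ more between groups. In the 4 groups of concentration, from weak to strong, the genes had 6, 11, 3 and 1 peaks in them, of which 2, 3, 1 and 0 were higher. Among all peaks the share that was higher was 24.6%, 15.6%, 6.44% and 1.26% in the same order. Of the 7 peaks with a mean concentration of at least 5 on the log2 scale, 1 was higher, the *Ptprc* peak, beside 5.11% of all peaks above that value. After 5 reads were added to both means, 3 of 21 were higher, beside 8.22% of all peaks. With a limit of 2-fold, 0 of 21 were higher, beside 4.57% of all peaks.

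**Figure D3:**
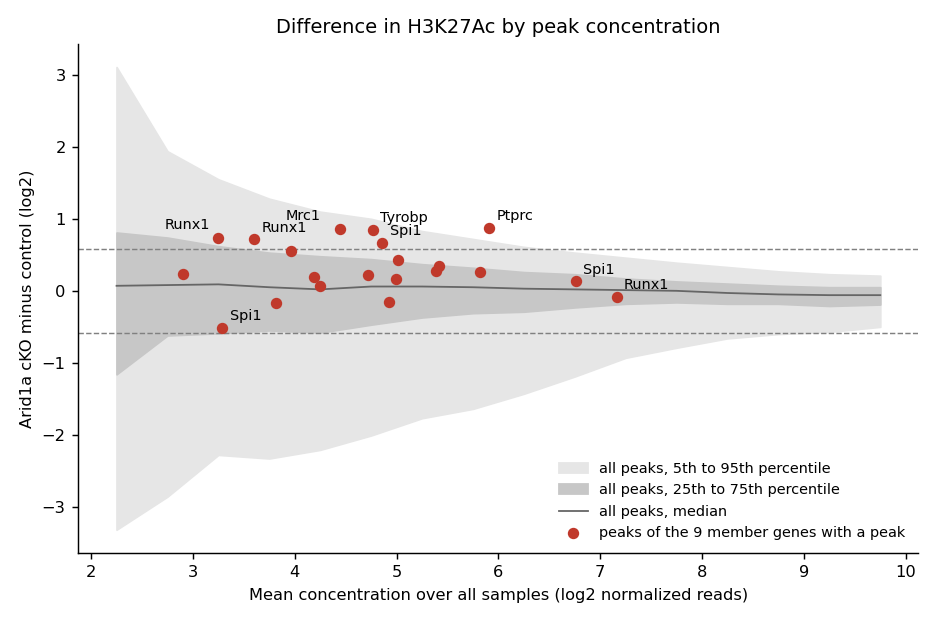
Log2 difference of each of the 21 peaks (red) against its mean concentration (log2 normalized reads), over the spread of all peaks as percentile bands, with dashed lines at 1.5-fold. The spread narrows as concentration increases, and *Ptprc* lies above the band that holds the middle 90% of peaks.

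Matches to motifs of the lineage are given beside their share in all peaks, with no test. In the central 300 bases, PU.1 (GAGGAAG) matched in 2 of 21 peaks, or 9.52%, beside 13.7% of all peaks. RUNX (TGTGGT) matched in 4, or 19.0%, beside 18.2%, and C/EBP (TTGCNNAA) in 2, or 9.52%, beside 10.9%. The IRF motif, taken as a pair of GAAA with 2 bases between them, matched in 2, or 9.52%, beside 4.29%. Both strands were searched, and none of the 4 strings contains another. Over whole peaks, PU.1 matched in 52.4% beside 56.4% of all peaks, and RUNX in 76.2% beside 70.8%. C/EBP matched in 61.9% of whole peaks beside 54.2%, and IRF in 28.6% beside 26.0%. A match is a description of letters and says nothing of binding.

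The RefSeq promoter table held 8 promoters for 6 of the genes, *Ptprc*, *Mrc1*, *Cx3cr1*, *Lyz2*, *Cd68* and *Runx1*. In the 300 bases from 250 before to 50 after the start, PU.1 matched in 1 promoter and RUNX in 3, beside 13.6% and 16.8% of 32851 promoters. C/EBP matched in 1 and IRF in 0, beside 10.8% and 3.44%. The proximal promoter of *Runx1* was the most GC-rich at 69.0% with 35 CpG sites, against a median of 52.7% and 7 sites over all promoters. The *Lyz2* promoter had 44.3% GC and 1 CpG site.

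The partners of these genes, namely ligands, signalling proteins and cofactors, had peaks at 18 of 23 genes. Of 62 peaks, 12 were higher (19.4%) and 1 was lower (1.61%), beside 12.0% and 17.3% of all peaks, with a median difference of 0.26. *Csf1*, a ligand of CSF1R, had 8 peaks that summed to 556 reads in *control* and 684 in *Arid1a cKO*, a log2 ratio of 0.30, and 2 of them were higher. *Il34*, the other ligand, summed to 162 and 217 reads, a log2 ratio of 0.42. *Cx3cl1*, the ligand of CX3CR1, summed to 82.0 and 92.3 reads, a log2 ratio of 0.17.

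Downstream of the receptors, the kinase gene *Lyn* had the strongest peak of the partners, with 478 and 484 reads and a difference of 0.02. Of the factors that work with PU.1, *Irf8* had 9 peaks that summed to 324 and 426 reads, a log2 ratio of 0.39. *Runx2*, a paralog of *Runx1*, had 20.0 and 28.4 reads in its strongest peak, a difference of 0.51. The genes of the other C1q chains had a single peak each, with a log2 ratio of −0.17 at *C1qb* and 0.06 at *C1qc*.

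Other genes of macrophages had peaks at 11 of 22 genes, a list that shares genes with the partners, among them *Irf8*, *Trem2*, *C1qb* and *C1qc*. Of their 29 peaks, 6 were higher (20.7%) and 1 was lower (3.45%), beside 12.0% and 17.3% of all peaks, and the median difference was 0.17. That median was 0.06 with peaks within 50 kb of a start only, 0.05 by gene body and 0.03 with predicted transcripts. *Aif1*, which encodes the macrophage protein IBA1, had 9.92 reads in *control* and 26.0 in *Arid1a cKO*, a difference of 1.39. *Cd14*, a receptor subunit for lipopolysaccharide, had 30.3 and 22.3 reads, a difference of −0.44. *Mertk*, a receptor for the uptake of dying cells, had 175 and 180 reads in its strongest peak, a difference of 0.04. No peak was assigned to *Adgre1*, *Fcgr1*, *Itgam*, *Timd4*, *Ccr2*, *Cd163*, *Folr2*, *Cd74*, *H2-Aa*, *Trem2* or *F13a1*, several of which are used to define macrophages.

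Genes shared by all leukocytes had peaks of both kinds. Among 36 peaks at 16 of 20 genes, 6 were higher (16.7%) and 8 were lower (22.2%), beside 12.0% and 17.3% of all peaks. The median difference was −0.08. *Ikzf1*, a transcription factor of lymphoid and myeloid cells, had 10.1 and 22.8 reads, a difference of 1.17. *Rac2*, a GTPase of blood cells, had 46.2 and 23.8 reads, a difference of −0.96. *Arhgdib*, a regulator of such GTPases, had 333 and 370 reads in its strongest peak, a difference of 0.15. *Ptprc*, also used by all leukocytes, had a difference of 0.88 beside this median. The difference between the lists was not tested.

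Markers of single leukocyte classes were mostly without a peak. T and NK cell genes had peaks at 2 of 10 genes, with 3 of 5 peaks higher, beside 12.0% of all peaks, and a median difference of 0.94. *Lck*, a T cell kinase, had 22.3 and 42.8 reads in its strongest peak. *Zap70*, another T cell kinase, had 32 and 32.7 reads in its strongest peak, a difference of 0.03. The median was 0.30 when peaks were assigned by gene body and 0.56 with predicted transcripts. No peak was assigned to *Cd3e*, *Cd3d* or *Cd3g*. B cell genes had 2 peaks at 2 of 9 genes, neither of them higher nor lower, and neutrophil and mast cell genes had 0 peaks at 10 genes.

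Other cell types of the ventricle give the setting. Over all peaks, 12.0% were higher and 17.3% were lower. Fibroblast genes had peaks at 10 of 10 genes, with 21 of 59 peaks higher (35.6%), 4 lower (6.78%) and a median difference of 0.39. Endothelial genes had 10 of 75 peaks higher (13.3%), near the share of all peaks, and 4 lower (5.33%), with a median of 0.11. Cardiomyocyte genes had 4 of 68 peaks higher (5.88%) and 11 lower (16.2%), with a median of −0.18. Fibroblast genes thus had higher peaks in the same group as the leukocyte genes, and the part of this shift in the result was not tested. A peak overlapped the promoter of all 15 cardiomyocyte genes. The same held for all 10 fibroblast and all 10 endothelial genes, so this does not check the label of ventricle. At *Arid1a* itself the strongest peak had 1607 and 1663 reads, a difference of 0.05, which does not check the deletion.

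**Figure D4:**
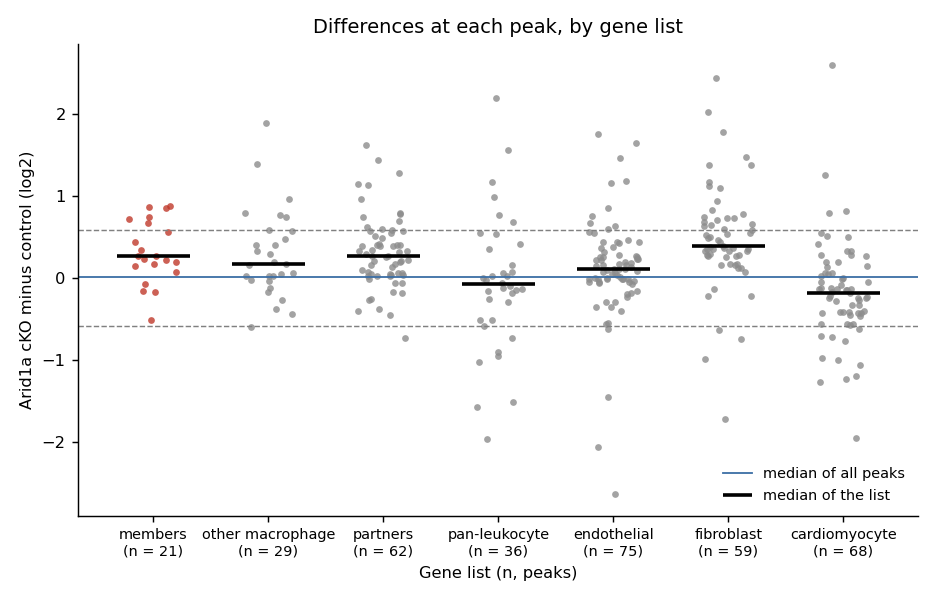
Log2 difference of every peak (points) of 7 gene lists, with black bars for the median of a list, a blue line for the median of all peaks at 0.01 and dashed lines at 1.5-fold. The 21 peaks of the macrophage and leukocyte identity genes (red) have a median of 0.26, between endothelial genes at 0.11 and fibroblast genes at 0.39.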

How the data were processed

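H3K27Ac ChIP-Seq was done on P7 ventricles of 2 *control* and 2 *Arid1a cKO* mice, with an input library for each. For the deposited table, the authors aligned to mm10 (BWA 0.7.17-r1188), found peaks with HOMER using all inputs merged as background, and took those present in 2 or more samples into DiffBind 2.12.0 with DESeq2 1.24.0. The deposited table gives, per peak, the authors' group means as the log2 of normalized reads. Their fold, p-value and FDR columns compare the groups and were not used. The library scaling and the treatment of input are not given in the sources used here. Because only peaks have values, regions without a peak could not be compared. Group means were converted to reads, and differences were taken per peak. A mean at or under 3 reads was treated as a floor.

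Of 45987 peaks, 7 on unplaced sequences were left out. The rest were joined to 45756 curated transcripts of GRCm38.p6 after the last peak of each of 21 chromosomes was found to lie inside the reference. Genes outside the members were named by rule, as the gene with the strongest peak and those with the lowest and the highest difference (in the gene's strongest peak) of each list, and ligands and C1q chains by role. A gene that the rule named is not reported here. The members and the gene lists were chosen with earlier results of these data known. Steps were tested on simulated data. Python 3.11.15, numpy 2.4.6, pandas 2.3.3, scipy 1.17.1, pysam 0.24.0 and matplotlib 3.10.9 were used.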

Additional observations from a re-analysis of the deposited data

How the results depend on the processing

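No paired analysis was possible because the table holds 0 columns of single samples, and for the same reason leaving out each replicate was not run. Of 152 alternatives, 123 moved a value by no more than 0.1 on the log2 scale or a count by no more than 1.5 times, 23 moved it by more and 6 changed its sign. The count of higher peaks, 6 of 21, became 1 of 7 at a mean concentration of at least 5, 3 with 5 reads added and 0 at a 2-fold limit. The count of lower peaks, 0, became 1 of 22 by gene body. That peak, inside *Runx1* at chr16:92611830-92612752 and assigned to *Gm30224* otherwise, had 19.7 reads in *control* and 1.42 in *Arid1a cKO*, which is at least 6.57-fold lower against a floor of 3 reads. By gene body, summed differences became −0.14 at *Spi1* and −0.12 at *Cd68*, where stronger peaks of neighbouring genes were added. *Ptprc* then had no peak, and 5 of 22 peaks (22.7%) were higher, beside 12.0% of all peaks. With predicted transcripts included, *Tyrobp* had no peak, and 5 of 16 (31.2%) were higher. The B cell median, −0.05, became 0.11 by gene body and 0.03 when centred on the total, and the epicardial median, 0.23, became −0.10 by gene body and with predicted transcripts. *Runx1* summed to 0.28 within 50 kb of a start, where its strongest peak is left out. The medians of the macrophage, T and NK cell, atrial and erythroid lists under other assignments stand beside those lists. Without depth or values of single samples, no interval can be given.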

Other observations

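Cell types that lie further from leukocytes gave these values. Mural genes had 3 of 26 peaks higher (11.5%) and 1 lower (3.85%), beside 12.0% and 17.3% of all peaks, with a median difference of 0.16. *Acta2*, smooth muscle actin, had 322 reads in *control* and 596 in *Arid1a cKO* in its strongest peak, a difference of 0.89. *Myh11*, smooth muscle myosin, had 14.3 and 10.4 reads in its strongest peak, a difference of −0.46. Epicardial genes had 2 of 12 peaks higher, with 626 and 537 reads in the strongest peak of *Wt1*, a difference of −0.22, and 452 and 617 in that of *Tbx18*, a difference of 0.45. Their median was 0.23. Erythroid genes had 1 of 4 peaks higher and a median of 0.39, with 5.98 and 13.7 reads at *Alas2*, the first enzyme of heme synthesis, a difference of 1.20, and 19.7 and 17 at *Klf1*, an erythroid transcription factor, a difference of −0.21. Atrial genes had 3 of 4 peaks higher and a median of 1.58, and *Myl7*, the atrial myosin light chain, had 8.88 and 44.6 reads in its strongest peak, a difference of 2.33. *Myl4*, another atrial light chain, had 19.6 and 16.1 reads in its strongest peak, a difference of −0.28, and *Sln* and *Bmp10* had no peak. The atrial median was 0.94, and the erythroid median 0.21, by gene body and with predicted transcripts. Schwann cell genes had 2 peaks at 2 of 4 genes, neither higher nor lower, with a median of −0.22.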
